A study of Mus musculus with 9 samples.

Results

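The transcripts described here encode the signalling chains of the T cell receptor complex (Cd3d, Cd3e, Cd3g and Cd247), the chains of the CD8 coreceptor (Cd8a and Cd8b1) and the adhesion and tuning receptors Cd2, Cd5 and Cd6. These 9 genes were taken by symbol from a table of 23936 genes, in which each had 1 row, and all 9 passed the filter that left 10185 genes for testing. The cells were OT-I cells, mouse CD8 T cells that carry a transgenic receptor for an ovalbumin peptide on MHC class I, so all groups share 1 receptor specificity. There were 3 libraries each of MLN-primed cells from the mesenteric lymph node (titles with "oral"), of spleen-primed cells from the spleen (titles with "iv") and of naive cells from the spleen. Organ and title word change together between the primed groups. MLN-primed and naive cells also differ in organ, whereas spleen-primed and naive cells share it, so the comparisons with naive are not alike in this. Age, the time after priming, the sorting gate and the number of animals behind each library were not given in the sources used here, so p-values measure the spread between libraries, which may be technical. Levels are FPKM, fragment numbers scaled to transcript length and to the mapped fragments of the library, and differences are in log2(FPKM + 1).

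The antigen-binding chains of the T cell receptor have no signalling tails of their own and depend on the CD3 chains and on the zeta chain encoded by Cd247. These carry tyrosine motifs that the kinase Lck phosphorylates and the kinase Zap70 then binds. The CD8 coreceptor binds MHC class I and brings Lck to the complex, as a pair of CD8 alpha chains or as an alpha and a beta chain. CD2 strengthens adhesion to cells that bear its ligand CD48, CD5 dampens receptor signalling, and CD6 binds the adhesion molecule encoded by Alcam.

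Several members lie close together in the genome (GRCm38, GENCODE genes). On chromosome 9, Cd3g (44969572 to 44980431, minus strand) and Cd3d (44981786 to 44987339, plus strand) point away from each other across a gap of 1354 bases, and Cd3e (44998740 to 45009627, minus strand) follows after 11400 bases with no annotated gene between. Cd8b1 (71322788 to 71337494) and Cd8a (71373427 to 71379173) share the plus strand of chromosome 6 with 4 predicted genes between them. Cd5 (10717116 to 10739002) and Cd6 (10789341 to 10830058) share the minus strand of chromosome 19, 50338 bases apart with 1 gene between them. Cd2 lies on chromosome 3 (101275899 to 101287939, minus strand) and Cd247 on chromosome 1 (165788681 to 165877277, plus strand). All are protein-coding. Exons of Cd247 overlap those of Pou2f1 on the other strand and of the predicted gene Gm16565, and exons of Cd3e overlap the predicted gene Gm48719. Whether strand was used in quantification is not given in the sources used here, so reads from such overlaps cannot be told apart. Pou2f1 averaged 1.62 FPKM in MLN-primed, 1.51 in spleen-primed and 2.0 in naive libraries, far below the level of Cd247.

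The 250 bases before the RefSeq start site (GRCm38.p6) are shown for the 3 clustered CD3 genes, which were lower in both primed groups, and for Cd5, which was not called in any comparison. The windows are chr9:44980432-44980681 for Cd3g, chr9:44981536-44981785 for Cd3d, chr9:45009612-45009861 for Cd3e and chr19:10738975-10739224 for Cd5, each read 5′ to 3′ on the strand of the gene. Capitals mark the ETS core (AGGAAG or CGGAAG) and the RUNX core (TGTGGT or TGCGGT), searched on both strands, so that AGGAAG also appears as CTTCCT and TGCGGT as ACCGCA.
Cd3g: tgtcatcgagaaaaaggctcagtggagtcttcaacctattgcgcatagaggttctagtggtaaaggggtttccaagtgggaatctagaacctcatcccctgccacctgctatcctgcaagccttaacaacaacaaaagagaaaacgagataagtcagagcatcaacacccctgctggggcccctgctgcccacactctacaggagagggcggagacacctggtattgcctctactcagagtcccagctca
Cd3d: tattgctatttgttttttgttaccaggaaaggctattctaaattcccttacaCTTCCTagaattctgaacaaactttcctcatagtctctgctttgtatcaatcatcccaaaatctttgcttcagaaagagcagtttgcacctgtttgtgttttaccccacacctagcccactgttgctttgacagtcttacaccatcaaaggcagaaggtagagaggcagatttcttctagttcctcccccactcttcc
Cd3e: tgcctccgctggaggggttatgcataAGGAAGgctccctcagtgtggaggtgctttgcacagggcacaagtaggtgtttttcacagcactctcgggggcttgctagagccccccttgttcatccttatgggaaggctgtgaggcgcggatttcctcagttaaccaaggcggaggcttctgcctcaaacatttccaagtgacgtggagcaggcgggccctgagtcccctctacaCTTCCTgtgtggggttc
Cd5: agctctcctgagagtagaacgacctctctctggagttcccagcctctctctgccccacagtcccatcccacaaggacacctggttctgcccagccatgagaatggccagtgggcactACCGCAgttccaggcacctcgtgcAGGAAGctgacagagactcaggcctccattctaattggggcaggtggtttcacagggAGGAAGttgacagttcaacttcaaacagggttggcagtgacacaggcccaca
The ETS core had 0 matches in the window of Cd3g, 1 in that of Cd3d, 2 in that of Cd3e and 2 in that of Cd5, and the RUNX core had 1 match, in the window of Cd5. The E-box CANNTG, searched as well and not capitalised, had 3 matches in the window of Cd3g, 1 in that of Cd3d, 1 in that of Cd3e and 2 in that of Cd5. Of 32851 RefSeq promoters cut to the same length, 39.2% held the ETS core, 18.6% the RUNX core and 66.2% the E-box. In windows not shown, the ETS core had 1 match for Cd247 and 0 for Cd8a, and both genes were lower in both primed groups. Whether the motifs bear on the levels was not tested. Letters of this kind are a description of the windows and say nothing of which factor binds there. Cd247 and Cd8a also had a promoter in the same RefSeq set, which makes 6 of 9 members, and none was found there for Cd8b1, Cd2 and Cd6.

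The libraries had FPKM totals of 612887 to 720165, and their values correlated at 0.987 to 0.995 within groups (Pearson, across genes, which are not independent replicates). The read depth is unknown. Within groups, libraries differed by a trend with transcript length, from -0.089 log2 units per doubling of length in MLN-primed 1 to 0.0788 in spleen-primed 3, each relative to its group. The marker list of CD8 T cells was the 9 members themselves, so it gives no separate check of what the cells were. Levels of markers of other lineages follow. Cd4 stayed at 0.0642 to 0.0915 FPKM in MLN-primed, 0.0509 to 0.0865 in spleen-primed and 0.167 to 0.269 in naive libraries. Summed over 7 genes, NK cell markers took 2.40 to 3.24 FPKM in MLN-primed, 4.91 to 7.02 in spleen-primed and 3.06 to 11.5 in naive libraries. B cell markers (7 genes) took 11.9 to 15.8 FPKM in MLN-primed, 7.80 to 9.21 in spleen-primed and 11.2 to 15.0 in naive libraries, mostly Cd79b. Dendritic cell markers (7 genes) took 47.3 to 58.6 FPKM in MLN-primed and 93.0 to 105.4 in spleen-primed libraries, mostly Itgax, and 2.12 to 4.23 in naive libraries, while Xcr1, Clec9a, Flt3, Zbtb46 and Siglech stayed under 1 FPKM in every library. Batf3, the remaining gene of that list, was at 12.7, 9.04 and 12.1 FPKM in MLN-primed, 2.65, 1.80 and 3.23 in spleen-primed and 0.262, 0.423 and 0.237 in naive libraries. Myeloid markers (7 of 8 genes with a row) took 15.4 to 18.5 FPKM in MLN-primed, 45.2 to 48.4 in spleen-primed and 5.92 to 46.2 in naive libraries. These sums join genes that moved in opposite directions. Itgam was at 7.63, 10.05 and 10.2 FPKM in MLN-primed, 28.7, 30.2 and 32 in spleen-primed and 0.24, 0.218 and 0.522 in naive libraries. Cd68 was also higher in primed libraries. S100a8 was at 1.82, 12.1 and 19.6 FPKM in naive libraries and at most 0.154 in primed ones. S100a9 and Lyz2 were also highest in naive 3. CD4 T cell markers (4 genes) took 8.53 to 11.6 FPKM in MLN-primed, 9.31 to 13.5 in spleen-primed and 15.1 to 18.3 in naive libraries. Of these, Zbtb7b was at 2.81, 4.025 and 4.66 FPKM in MLN-primed, 4.21, 4.15 and 6.27 in spleen-primed and 0.293, 0.682 and 0.239 in naive libraries. Cd40lg went the other way, at 13.2 to 17.2 FPKM in naive and 4.29 to 6.77 in primed libraries. Gamma delta T cell markers (3 of 6 genes with a row) took 0.11 to 0.261 FPKM in MLN-primed, 0.427 to 0.730 in spleen-primed and 0.603 to 1.63 in naive libraries. The part of these cells in the results below was not tested. In bulk RNA, fewer cells of a type and less RNA per cell cannot be told apart. Rows of the receptor's own constant chains, such as Trac and Trbc2, were not analysed here. Of 15 listed antigen receptor genes, 1 had a row, Ptcra, and it did not reach the filter.

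All 4 CD3 chains were lower in both primed groups than in naive cells, and 3 of them were lower again in MLN-primed cells than in their spleen-primed counterparts. Cd3g, which encodes the gamma chain, was the most abundant of the 4. It had 294, 285 and 291 FPKM in the MLN-primed libraries, 452, 421 and 409 in the spleen-primed and 743, 691 and 731 in the naive libraries. No group overlapped another, and the spread within groups was small beside the steps between them. MLN-primed cells thus held 40.2% and spleen-primed cells 59.2% of the naive mean. The log2 difference was -0.56 ± 0.06 for MLN-primed against spleen-primed (SE; limma, adjusted p = 2.40e-04), -0.75 ± 0.06 for spleen-primed against naive (adjusted p = 2.11e-06) and -1.31 ± 0.06 for MLN-primed against naive (adjusted p = 2.82e-08).

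Cd3d, whose delta chain pairs with epsilon as gamma does, followed the same order. Its levels were 232, 199 and 209 FPKM in MLN-primed, 345, 344 and 299 in spleen-primed and 541, 581 and 517 in naive libraries. The 3 groups again stood apart without overlap. The differences were -0.63 ± 0.09 for MLN-primed against spleen-primed (adjusted p = 6.78e-04), -0.73 ± 0.09 for spleen-primed against naive (adjusted p = 2.69e-05) and -1.36 ± 0.09 for MLN-primed against naive (adjusted p = 2.21e-07). Cd247, the zeta chain, varied little within groups, with 146, 156 and 157 FPKM in MLN-primed, 193, 208 and 197 in spleen-primed and 307, 315 and 305 in naive libraries. Its step between the primed groups was the smallest of the 3 called CD3 chains, at -0.38 ± 0.06 (adjusted p = 0.00126). Against naive it was at -0.63 ± 0.06 in spleen-primed (adjusted p = 5.05e-06) and at -1.01 ± 0.06 in MLN-primed cells (adjusted p = 1.19e-07).

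Cd3e, the epsilon chain shared by both CD3 pairs, was the least abundant of the chains and the least even among replicates. It had 115, 159 and 155 FPKM in MLN-primed, 166, 169 and 205 in spleen-primed and 268, 216 and 269 in naive libraries. The low MLN-primed value came from MLN-primed 1 and the high spleen-primed value from spleen-primed 3, the libraries at the ends of the length trend, and the low naive value from naive 2, whose trend was -0.0479. Cd3d, with a mean transcript length of 1617 bases against 1462 for Cd3e, went the other way in these libraries. Within its groups Cd3d was highest in MLN-primed 1 (232 FPKM) and naive 2 (581 FPKM) and lowest in spleen-primed 3 (299 FPKM). Whether the trend accounts for the values of Cd3e was not tested. The groups did not overlap, yet the primed groups did not differ by the test (-0.34 ± 0.14, adjusted p = 0.105, 95% interval -0.65 to -0.02). The difference passed under median-of-ratios scaling (-0.38, adjusted p = 0.0392) and was -0.09 without both MLN-primed 1 and spleen-primed 3. Against naive, Cd3e fell in the spleen-primed group (-0.48 ± 0.14, adjusted p = 0.0116) and in MLN-primed cells (-0.81 ± 0.14, adjusted p = 4.16e-04), and the call in spleen-primed cells ended when no filter on low values was used (-0.48, adjusted p = 0.061).

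**Figure D1:**
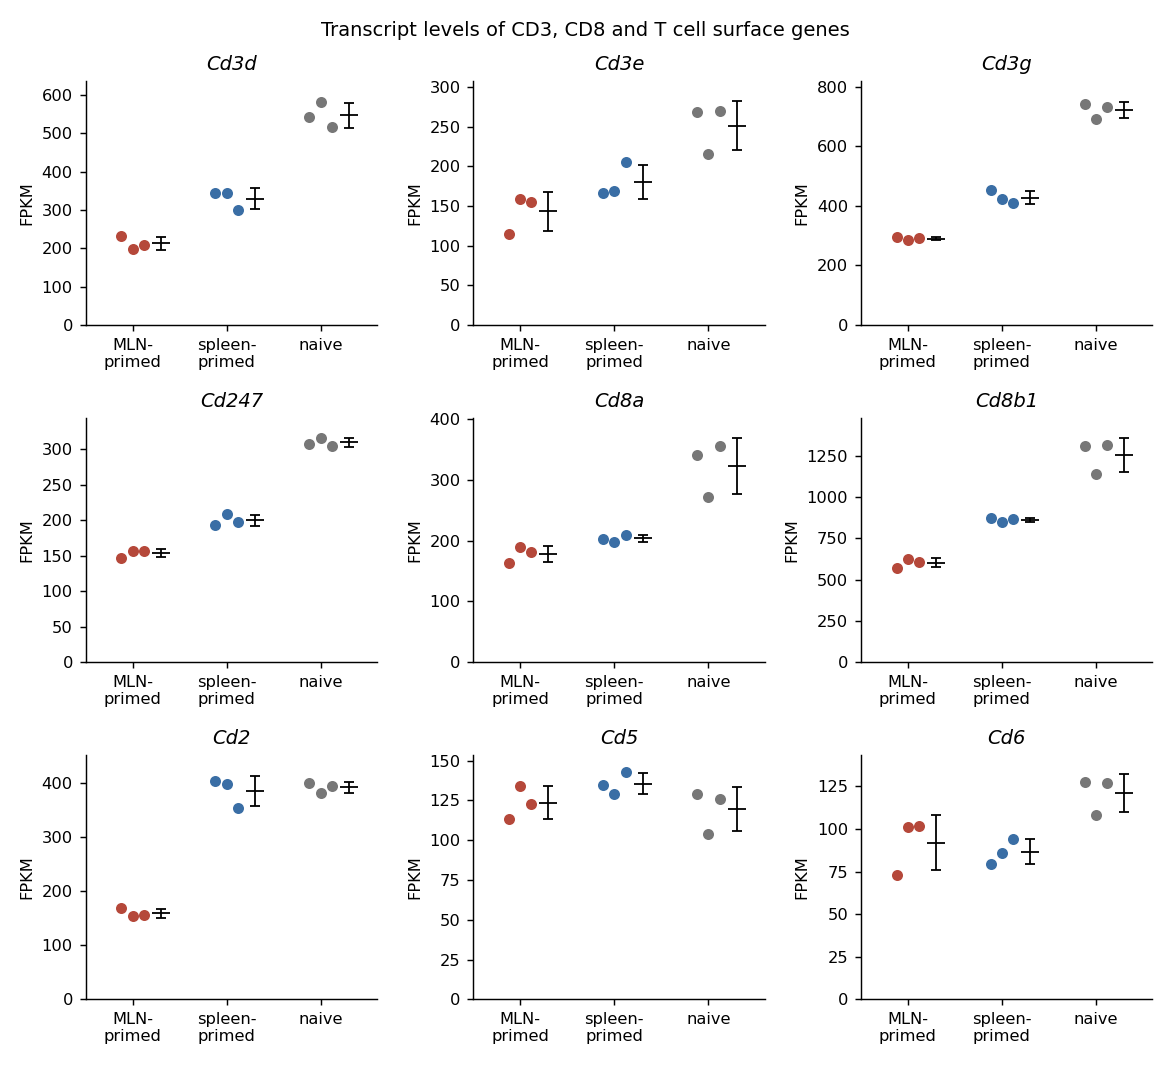
FPKM (y axes, from 0) of the 9 genes in the 3 libraries of each group (x axes), with black marks for the mean and SD. The CD3 and CD8 chains descend without overlap to the MLN-primed libraries, Cd2 is low in MLN-primed libraries (153 to 168 FPKM) and alike in the other groups, and Cd5 overlaps between MLN-primed and both other groups.

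The CD8 coreceptor chains were also lower in primed cells. Between the primed groups the difference passed for the beta chain and did not pass for the alpha chain, and the ratio of the chains, given further on, could not reach significance. Cd8b1, the highest of all members in each group, was at 572, 625 and 605 FPKM in MLN-primed, 874, 847 and 863 in spleen-primed and 1308, 1136 and 1313 in naive libraries. It ranked 150 to 181 among 23936 genes in MLN-primed, 119 to 127 in spleen-primed and 86 to 93 in naive libraries, counted from the highest FPKM. The difference was -0.52 ± 0.08 for MLN-primed against spleen-primed (adjusted p = 8.81e-04), -0.54 ± 0.08 for spleen-primed against naive (adjusted p = 9.61e-05) and -1.06 ± 0.08 for MLN-primed against naive (adjusted p = 5.20e-07). Cd8a was at 163, 190.3 and 181 FPKM in MLN-primed, 203, 198 and 210 in spleen-primed and 341, 271 and 356 in naive libraries. The primed groups lay close together without overlap, and their difference did not pass (-0.19 ± 0.10, adjusted p = 0.191, 95% interval -0.43 to 0.04). Against naive, Cd8a fell by 0.65 on the log2 scale in spleen-primed (adjusted p = 2.31e-04) and by 0.85 in MLN-primed cells (adjusted p = 3.03e-05).

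Cd2 had the largest difference between the primed groups among the 9 members. It was at 168, 153 and 155 FPKM in MLN-primed, 403, 397 and 353 in spleen-primed and 399.5, 380.2 and 393 in naive libraries. Each MLN-primed library was below every other library, while spleen-primed and naive libraries overlapped. The mean in MLN-primed cells was 40.6% of the naive mean. The difference was -1.27 ± 0.07 for MLN-primed against spleen-primed (adjusted p = 8.72e-06) and -1.30 ± 0.07 for MLN-primed against naive (adjusted p = 7.16e-08). Spleen-primed against naive gave -0.03 ± 0.07 (adjusted p = 0.749, 95% interval -0.18 to 0.13). That value depended on the scale: it was -0.71 under quantile normalisation (adjusted p = 1.24e-06), -0.31 after removal of the length trend from each library (adjusted p = 6.83e-04) and 0.03 without spleen-primed 3.

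Cd5, the inhibitory tuning receptor, passed in no comparison. It was at 113, 134 and 123 FPKM in MLN-primed, 135, 129 and 143 in spleen-primed and 129, 104 and 126 in naive libraries. MLN-primed values overlapped both other groups, and spleen-primed values lay just above the naive ones. The differences were -0.14 ± 0.10 for MLN-primed against spleen-primed (adjusted p = 0.325), 0.18 ± 0.10 for spleen-primed against naive (adjusted p = 0.103) and 0.05 ± 0.10 for MLN-primed against naive (adjusted p = 0.650), with 95% intervals of -0.35 to 0.08, -0.03 to 0.40 and -0.16 to 0.26. Against naive the sign turned under quantile normalisation, to -0.40 in spleen-primed (adjusted p = 0.0057) and -0.58 in MLN-primed cells (adjusted p = 5.04e-04), and in MLN-primed also under median-of-ratios scaling (-0.12). In rank within the library, Cd5 stood at 700 to 861 in MLN-primed, 628 to 721 in spleen-primed and 461 to 594 in naive libraries.

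Cd6 was lower than naive in both primed groups. It was at 73.2, 101 and 102 FPKM in MLN-primed, 79.7, 86.1 and 94.2 in spleen-primed and 128, 108 and 127 in naive libraries. Both primed groups lay below naive and overlapped each other, with MLN-primed 1 the lowest library of all. The difference was -0.48 ± 0.13 for spleen-primed against naive (adjusted p = 0.00726) and -0.40 ± 0.13 for MLN-primed against naive (adjusted p = 0.0160). Without MLN-primed 1 the difference of MLN-primed from naive was -0.25 (adjusted p = 0.0373). The call in MLN-primed cells ended without naive 1 (-0.36, adjusted p = 0.0551), without naive 3 (-0.37, adjusted p = 0.055) and with no filter on low values (-0.40, adjusted p = 0.0714). MLN-primed against spleen-primed gave 0.07 ± 0.13 (adjusted p = 0.725, 95% interval -0.22 to 0.36), and without both MLN-primed 1 and spleen-primed 3 it was 0.29 and passed (adjusted p = 0.0356).

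Counted together, 5 of the 9 members were lower and 0 higher in MLN-primed cells than in their spleen-primed counterparts (limma, adjusted p under 0.05), where 13.1% of all tested genes were lower and 17.3% higher, 30.4% in all. These were Cd3d, Cd3g, Cd247, Cd8b1 and Cd2, and at an unadjusted p under 0.05 Cd3e was lower as well. Against naive, 7 members were lower and 0 higher in spleen-primed cells, where 32.7% of tested genes were lower and 43.1% higher (75.8% in all), and 8 were lower and 0 higher in MLN-primed cells, where 33.2% were lower and 45.5% higher (78.7% in all). All 3 MLN-primed libraries lay below all 3 spleen-primed libraries in 7 members and above them in 0, against 21.0% and 25.1% of tested genes. All spleen-primed libraries lay below all naive ones in 7 members and above them in 1, Cd5, against 33.7% and 44.5% of tested genes. All MLN-primed libraries lay below all naive ones in 8 members and above them in 0, against 34.6% and 45.8% of tested genes. The median log2 difference of the members was -0.38 for MLN-primed against spleen-primed, -0.54 for spleen-primed against naive and -1.01 for MLN-primed against naive, beside 0.03, 0.10 and 0.15 over all tested genes. Both comparisons with naive share the naive libraries. Median-of-ratios scaling moved the median of all tested genes against naive to -0.01 in both primed groups. Quantile normalisation made the falls against naive larger, for example to -1.33 in spleen-primed and to -1.97 in MLN-primed libraries for Cd3d, and called all 9 members lower in both primed groups.

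**Figure D2:**
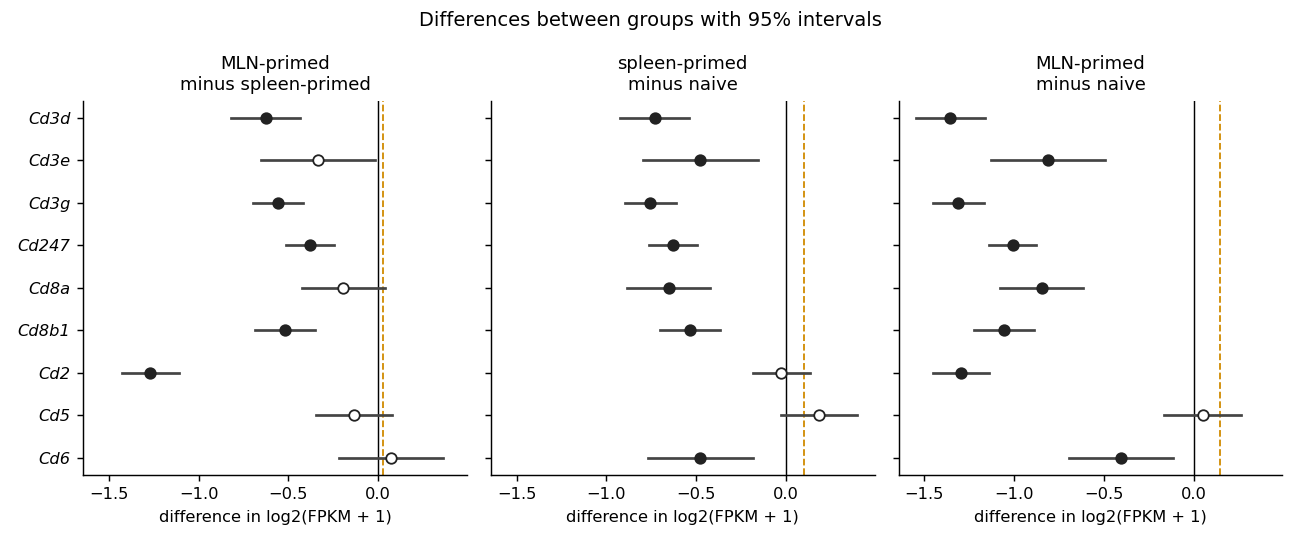
Differences in log2(FPKM + 1) (x axes) of the 9 genes (rows) in the 3 comparisons, with 95% intervals of the limma model, filled where the adjusted p was under 0.05. The dashed line is the median of all tested genes (0.03, 0.10 and 0.15), and Cd2 lies farthest to the left in MLN-primed minus spleen-primed at -1.27.

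Levels within a library can be set against each other without regard to the scale of that library, though not to the length trend. In 7 such ratios and 3 comparisons, an exact two-sided permutation test of 3 libraries against 3 cannot give less than 0.10, and no ratio could pass. The beta to alpha ratio of CD8 transcripts, Cd8b1 over Cd8a, was 3.50, 3.29 and 3.34 in MLN-primed, 4.31, 4.27 and 4.12 in spleen-primed and 3.83, 4.19 and 3.68 in naive libraries. MLN-primed libraries were below all others, and spleen-primed overlapped naive (log2 difference -0.33 for MLN-primed against spleen-primed, exact permutation p = 0.10, adjusted over 21 tests 0.263). Mean transcript length was 1483 bases for Cd8b1 and 3051.5 for Cd8a. Within groups this ratio peaked in MLN-primed 1, spleen-primed 1 and naive 2, whose slopes with length were the lowest (-0.089, -0.0513 and -0.0479). Those slopes are relative to each group, and the part of length in the difference between groups was not tested. Cd5 over Cd6 averaged 1.36 ± 0.17 in MLN-primed, 1.57 ± 0.11 in spleen-primed and 0.986 ± 0.024 in naive libraries (SD, n = 3 each). Each primed library was above each naive one (exact permutation p = 0.10 in both comparisons, adjusted 0.263). Cd2 over Cd3e was 1.46, 0.963 and 0.995 in MLN-primed, 2.42, 2.35 and 1.72 in spleen-primed and 1.49, 1.76 and 1.46 in naive libraries.

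The 4 CD3 chains summed to 799.7 ± 12.2 FPKM in MLN-primed, 1136 ± 24 in spleen-primed and 1828 ± 29 in naive libraries (SD, n = 3 each). Of that sum, Cd3g made up 36.3% ± 0.9 in MLN-primed, 37.6% ± 1.3 in spleen-primed and 39.5% ± 1.0 in naive libraries. Cd3e made up 17.9% ± 2.9 in MLN-primed, 15.9% ± 2.3 in spleen-primed and 13.7% ± 1.5 in naive libraries. Cd247 made up 19.1% ± 0.5 in MLN-primed, 17.6% ± 0.8 in spleen-primed and 16.9% ± 0.5 in naive libraries. The ratio of Cd3d to Cd3e was 2.02, 1.25 and 1.34 in MLN-primed, 2.08, 2.04 and 1.46 in spleen-primed and 2.02, 2.69 and 1.92 in naive libraries. In each group the library with the highest ratio had the most negative length trend, -0.089 in MLN-primed 1, -0.0513 in spleen-primed 1 and -0.0479 in naive 2. The mean transcript lengths were 1617 bases for Cd3d and 1462 for Cd3e. Whether the trend bears on this ratio was not tested. The groups overlapped in this ratio in all 3 comparisons (exact permutation p = 0.20, 0.60 and 0.20 for MLN-primed against spleen-primed, spleen-primed against naive and MLN-primed against naive).

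**Figure D3:**
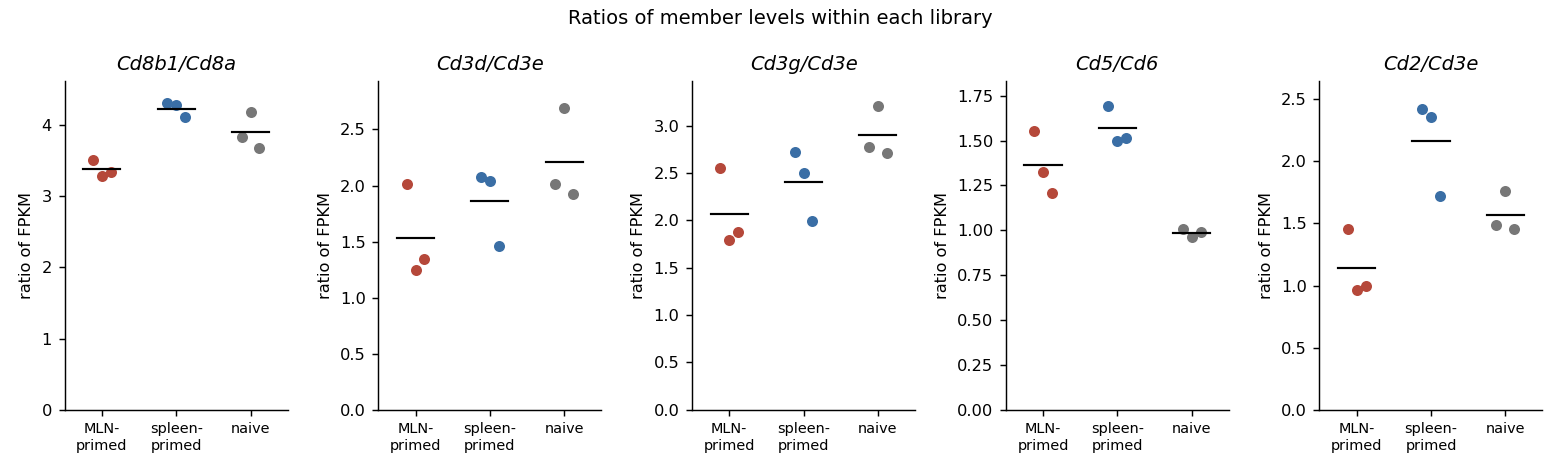
Ratios of FPKM within each library (y axes, from 0) for 5 pairs of members by group, with a line at the mean of 3 libraries. Cd8b1 over Cd8a is lowest in MLN-primed libraries (3.29 to 3.50), and Cd5 over Cd6 is near 1 in naive libraries and above it in all primed ones.

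Genes that work beside these receptors were described from lists chosen with earlier results of these data known. The kinases and adaptors of the receptor moved both ways against naive. Among all tested genes, 43.1% were higher and 32.7% lower in spleen-primed than in naive cells, and 45.5% and 33.2% in MLN-primed cells. Of 20 tested partners, 7 were higher and 4 lower in spleen-primed than in naive cells, and 6 were higher and 9 lower in MLN-primed than in naive cells. These splits depended on the scale: median-of-ratios scaling gave 7 higher and 7 lower in spleen-primed and 2 higher and 11 lower in MLN-primed cells, and quantile normalisation gave 1 higher and 13 lower in spleen-primed and 1 higher and 18 lower in MLN-primed cells. With the replicate number as a block, 9 were higher and 4 lower in spleen-primed than in naive cells, Cd28 (0.23, adjusted p = 0.0497) and Nck1 (0.17, adjusted p = 0.0448) having gained calls. In MLN-primed against naive cells the block gave 7 higher and 9 lower, Fyn (0.25, adjusted p = 0.00678) having gained a call. Between the primed groups, 8 were lower and 0 higher in MLN-primed cells, beside 13.1% and 17.3% of all tested genes. The list median there was -0.28, beside 0.03 over all tested genes. Lck, the kinase that CD8 carries, was at 389 ± 7 FPKM in MLN-primed, 511 ± 39 in spleen-primed and 391 ± 29 in naive libraries (SD, n = 3 each). It was lower in MLN-primed cells than in their spleen-primed counterparts (-0.39, adjusted p = 0.00417) and higher in spleen-primed than in naive cells (0.39, adjusted p = 0.00106). The difference from naive turned to -0.33 under quantile normalisation. Zap70 was at 107 ± 2 FPKM in MLN-primed, 117 ± 4 in spleen-primed and 77.4 ± 0.7 in naive libraries. Against naive it rose by 0.59 in spleen-primed (adjusted p = 5.14e-06) and 0.46 in MLN-primed cells (adjusted p = 2.54e-05), and quantile normalisation brought these values to 0.03 and -0.14. The receptor-associated adaptor gene Trat1 fell to 7.14 ± 2.93 FPKM in MLN-primed and 5.40 ± 0.91 in spleen-primed cells, against 35.1 ± 1.9 in naive cells (adjusted p = 5.19e-06 and 2.47e-06).

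Other surface proteins of T cells were lower in MLN-primed cells than in their spleen-primed counterparts in 13 of 14 cases, with 0 higher and a list median of -0.62. Among all tested genes, 13.1% were lower and 17.3% higher in that comparison. Cd52, a small glycoprotein of lymphocytes, was at 1588 ± 100 FPKM in MLN-primed against 3081 ± 202 in spleen-primed libraries (-0.96, adjusted p = 4.86e-05). The tetraspanin gene Cd82 was at 119 ± 11 against 213 ± 12 FPKM (-0.83, adjusted p = 9.10e-05) and Cd7 at 34.1 ± 2.6 against 66.9 ± 4.3 FPKM (-0.95, adjusted p = 8.72e-05). Cd151 lost its call in 7 of 19 alternatives, among them the removal of each primed library but MLN-primed 1. Selplg lost its call in 2 alternatives (no filter on low values, and without spleen-primed 2) and Thy1 in 1 (quantile normalisation). Against naive, 43.1% of all tested genes were higher and 32.7% lower in spleen-primed cells, and 45.5% and 33.2% in MLN-primed cells. The list had 5 higher and 5 lower in spleen-primed cells (6 and 6 with the replicate block) and 3 higher and 7 lower in MLN-primed cells. In MLN-primed cells that split became 1 higher and 11 lower under median-of-ratios scaling and 0 higher and 10 lower under quantile normalisation.

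The ligands and partners of CD2, CD5 and CD6 were higher than naive in 9 of 13 tested genes and lower in 3, in each primed group. Of all tested genes, 43.1% were higher in the spleen-primed and 45.5% in the MLN-primed group, and 32.7% and 33.2% were lower. Quantile normalisation left 7 higher and 4 lower in spleen-primed and 6 higher and 4 lower in MLN-primed cells, and median-of-ratios scaling left 7 higher and 3 lower in MLN-primed cells. In MLN-primed cells, Pstpip1 and Sh2d1a each lost the call in 7 of 20 alternatives. Cd48, the ligand of CD2 in mice, was at 617 ± 83 FPKM in MLN-primed, 778 ± 100 in spleen-primed and 183 ± 44 in naive libraries. It was higher than naive by 1.77 in MLN-primed (adjusted p = 7.10e-06) and 2.10 in spleen-primed cells (adjusted p = 2.38e-06), and MLN-primed against spleen-primed gave -0.33 (adjusted p = 0.189). Alcam, which encodes the ligand of CD6, was at 5.22 ± 0.67 FPKM in MLN-primed, 5.91 ± 0.76 in spleen-primed and 0.0998 ± 0.0251 in naive libraries (limma, adjusted p = 1.39e-08 for MLN-primed and 1.17e-08 for spleen-primed, both against naive). Cd2ap, an adaptor that binds the tail of CD2, was lower than naive in both, by -2.32 (MLN-primed) and -2.51 (spleen-primed). Between the primed groups, 1 gene was higher and 3 lower in MLN-primed cells, beside 17.3% and 13.1% of all tested genes. The higher one, Cd244 (0.28), lost its call in 12 of 19 alternatives, the removal of any 1 primed library among them. With the replicate number as a block, 0 were higher and 5 lower. Cd48 (-0.33, adjusted p = 0.0235) and Pstpip1 (-0.29, adjusted p = 0.0306) then gained calls.

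Of 18 tested transcription factors of the T lineage, 5 were higher and 8 lower in spleen-primed, and 5 higher and 10 lower in MLN-primed cells than in naive cells. The share of all tested genes called in either direction was 75.8% in the spleen-primed group (43.1% higher, 32.7% lower) and 78.7% in the MLN-primed group (45.5% higher, 33.2% lower). Tcf7 was at 21.2 ± 4.8 FPKM in MLN-primed and 775 ± 35 in naive libraries (-5.15), and was -4.42 in spleen-primed against naive. Ets1, a factor of the ETS family, was at 93.3 ± 11.6 FPKM in MLN-primed, 142 ± 8 in spleen-primed and 331 ± 38 in naive libraries, with a difference of -0.60 between the primed groups (adjusted p = 0.00281). Runx3, which has a role in keeping CD8 expression in killer T cells, averaged 31.2 ± 13.7 FPKM in MLN-primed, 26.5 ± 13.5 in spleen-primed and 22.5 ± 0.2 in naive libraries and did not pass with all 9 libraries. Without MLN-primed 1, Runx3 was 0.77 in MLN-primed against naive (adjusted p = 0.0289). Without both MLN-primed 1 and spleen-primed 3 it passed in all 3 comparisons, at 1.02 for MLN-primed against spleen-primed (adjusted p = 4.91e-05), -0.25 for spleen-primed against naive (adjusted p = 0.00736) and 0.77 for MLN-primed against naive (adjusted p = 4.27e-06). Between the primed groups, 1 factor, Myb (0.85), was higher in MLN-primed cells and 4 were lower, beside 17.3% and 13.1% of all tested genes. Without both MLN-primed 1 and spleen-primed 3, 4 were higher and 2 lower. Median-of-ratios scaling and quantile normalisation each gave 1 higher and 7 lower. Tcf7 lost its call in 5 of 20 alternatives (without spleen-primed 3 it was -0.57, adjusted p = 0.057) and Elf1 in 4.

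**Figure D4:**
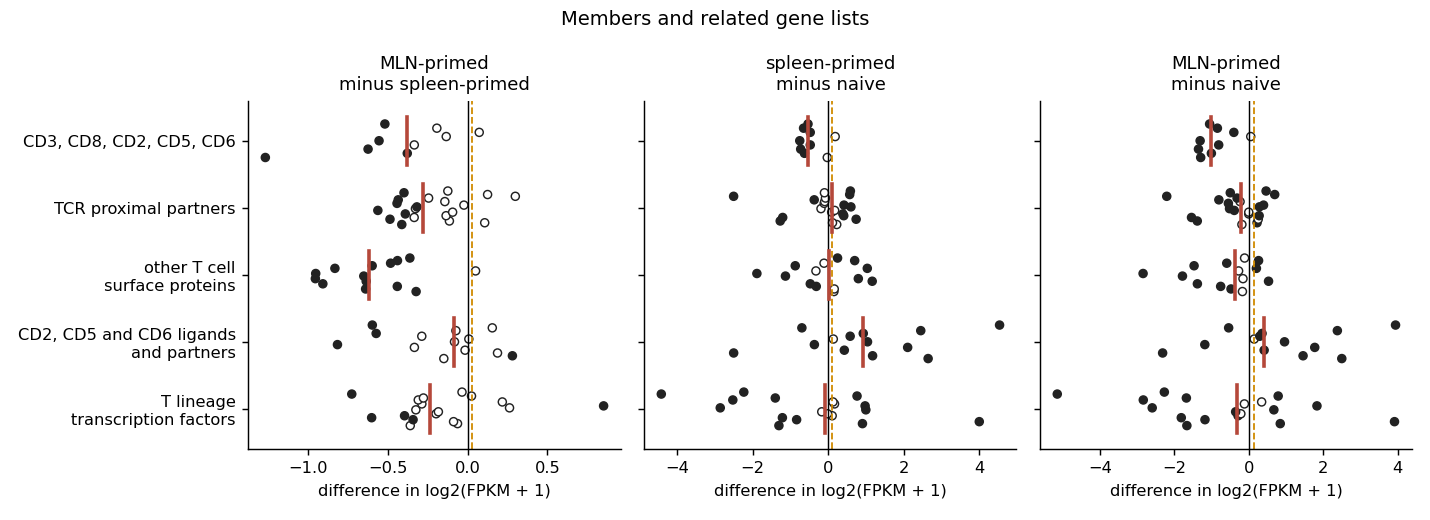
Differences in log2(FPKM + 1) (x axes) of single genes (points, filled where the adjusted p was under 0.05) in the 9 members and in the related lists (rows), with a bar at the list median and a dashed line at the median of all tested genes. In MLN-primed minus spleen-primed the other T cell surface proteins have a median of -0.62 and the members one of -0.38. Ligands and partners have medians of 0.93 in spleen-primed and 0.41 in MLN-primed minus naive.

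Among 7069 tested genes of at least 5 FPKM, those most like a member across the 9 libraries were named as a description, by Pearson correlation of log2(FPKM + 1), which mostly follows the 3 groups. For Cd3d these were Grcc10, Ptpn18 and Tmem66 (0.995 to 0.998), and Tmem66 also led for Cd3g (0.996). Sidt1 led for Cd247 (0.998) and Nfatc3 for Cd3e (0.993). Cd8a was most like Ids (0.993), while Cd8b1 was most like Gsn, Gucd1 and Il2rg (0.995 to 0.997). Il2rg, the shared receptor chain of the interleukin-2 family, averaged 208 FPKM in MLN-primed, 311 in spleen-primed and 427 in naive libraries. Cd2 had a different set, led by March2 and Antxr2 (0.998 and 0.993), both of which were low in MLN-primed libraries. Cd5 was most like Osbp (0.987) and Cd6 most like Arid2 (0.990). Among the members themselves, Cd3d, Cd3g and Cd247 correlated at 0.977 to 0.987 with each other, Cd8a and Cd8b1 at 0.946, and Cd5 and Cd6 at -0.03.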

How the data were processed

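RNA-seq libraries of OT-I CD8 T cells were, per the labels' protocols, prepared with a stranded mRNA kit. The deposited table holds FPKM made with TopHat and Cufflinks on mm10, according to the submitters' processing notes. Tool versions, any filtering and the strand setting were not given in the sources used here. A gene's FPKM covers all RefSeq transcripts of its row, so isoforms are not told apart. FPKM hold no read numbers, so depth is unknown, and a few very abundant genes can move the rest. Another deposited table was identical byte for byte and was not used. Of 24067 rows, 131 without a symbol (0.0479% of FPKM) were left out. The 10185 genes that reached 1 FPKM in 3 or more libraries were fitted as log2(FPKM + 1), without further scaling, in 1 model of all 9 libraries (limma 3.58.1 with variance trend, R 4.3.3), two-sided, with Benjamini-Hochberg adjustment over all tested genes at 0.05. This scale understates changes of low genes. Other steps ran in Python 3.11.15 with scipy 1.17.1, pandas 2.3.3 and numpy 2.4.6, and plots in matplotlib 3.10.9. Errors are SD over 3 libraries or SE of the model.

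Members, lists, tests and alternatives were chosen with earlier results of these data known. All members are named, with up to 3 genes per list and direction by smallest p, genes needed for a sentence on a list, and the 3 genes most correlated with each member, leaving out predicted and clone-named models and small RNAs. Related lists are described by counts and medians. Some genes that meet the rule are left out of the text for length. Transcript lengths came from GENCODE M21 (GRCm38) for 99.7% of tested genes. In data simulated on the comparison of the primed groups (10185 genes, 200 changed, 10 sets), 52.5% of changes of 0.5, 89.9% of 1 and 98.9% of 2 on the log2 scale were recovered, with 5.08% false calls. The simulated spread was independent between genes, with no length trend shared within a library. In the data, 30.4% of tested genes were called in this comparison. The simulated rates therefore need not hold for the data. The labels do not say what a replicate number marks. Deviations from the group means of same-numbered libraries correlated at 0.16, 0.116 and 0.236 between spleen-primed and naive, all over 0.1. In the other comparisons they were not all over 0.1. The main tests, also for spleen-primed against naive, left the replicate numbers out and are unpaired. The numbers entered only as a block among the alternatives. Alternatives tried were median-of-ratios scaling, quantile normalisation, another pseudocount (0.1 FPKM), other filters (none, or 5 FPKM), no variance trend, a robust fit, a fit of the compared groups alone, a block for the replicate number, leaving out single libraries, MLN-primed 1 and spleen-primed 3 left out together, removal of the length trend and, for ratios, 1 FPKM added to both genes.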

Additional observations from a re-analysis of the deposited data

Results flagged for a closer look

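For 5 members the change against naive differed between the primed groups, by the test of MLN-primed against spleen-primed itself. The naive values cancel in this difference, so it repeats the contrast given above and is no further result. The change in MLN-primed minus that in spleen-primed cells was -0.63 for Cd3d, -0.56 for Cd3g, -0.38 for Cd247, -0.52 for Cd8b1 and -1.27 for Cd2 on the log2 scale. In Cd2 the change against naive passed in MLN-primed cells and did not pass in spleen-primed cells. Groups of 3 libraries are too small to single out one library as far from the others.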

How the results depend on the processing

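The counts of members called lower, 5, 7 and 8 in the 3 comparisons, and the counts of all tested genes called stayed within 1.5 times under all alternatives run, and Cd3d, Cd3g, Cd247, Cd8b1 and Cd2 kept their calls for MLN-primed against spleen-primed under all 20. Without both MLN-primed 1 and spleen-primed 3, 1 member, Cd6, was called higher there. Leaving out 1 library at a time gave 2139 to 3196 called genes for MLN-primed against spleen-primed. Signs turned for Cd6 between the primed groups (-0.0029 without MLN-primed 2 and -0.0082 without MLN-primed 3, in a range up to 0.2271 when 1 library was left out), for Cd2 in spleen-primed against naive (0.0338 without spleen-primed 3, alone or with MLN-primed 1, in a range from -0.0611) and for Cd5 in spleen-primed against naive (-0.40 under quantile normalisation). For Cd5 in MLN-primed against naive they turned under median-of-ratios scaling (-0.12), quantile normalisation (-0.58), removal of the length trend (-0.0309) and without naive 2 (-0.0472) or MLN-primed 2 (-0.0114), in a range up to 0.1078. Among ratios, Cd247 over Cd3e between the primed groups ranged from -0.162 to 0.0302 and Cd8a over Cd3e in MLN-primed against naive from -0.123 to 0.019 when 1 library was left out. Cd8a over Cd3e between the primed groups turned to -0.0214 without MLN-primed 1 and spleen-primed 3. The cause was not tested. The replicate number as a block changed no call of a member. In the lists, it moved some calls in each of the 3 comparisons, as given beside them. It gave 3382 called genes for MLN-primed against spleen-primed, where same-numbered libraries correlated at 0.645, -0.24 and 0.485 and not each best with its own number, and 8207 for MLN-primed against naive (0.145, -0.241 and 0.117). For spleen-primed against naive, the block gave 7928 called genes. Depth is unknown, so counting error is not given.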
